A study of Mus musculus with 33 samples.

Results

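Il10, Il9r and Il7r, an interleukin gene and 2 interleukin receptor genes, were followed through total RNA of CH12 cells, a mouse B lymphoma line, with and without the chromatin reader ZMYND8. They are 3 of 10749 genes for which a value could be formed. They were chosen by name with earlier results of these libraries in view, so their levels are given as a description and carry no p-value. The value of a gene is the sum of estimated counts over the numbered genomic regions of the authors' tables that lie wholly inside its RefSeq span and inside no other gene, printed as CPM, the count scaled to the size of the library.

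Total RNA depleted of ribosomal RNA was sequenced from 4 lines, 2 of them ZMYND8 wild type and 2 of them ZMYND8 knockout. The wild-type lines are labelled WT and WT clone, and the knockout lines KO1 clone and KO2 clone. Each line was kept for 48 h unactivated or activated, in 3 cultures per state that the labels call biological repeats, which gave 24 libraries in 8 groups. What activated the cells, and how the knockouts were made, is not in the labels. Each knockout line and the WT clone is 1 clone by its label, so a difference between genotypes rests on 2 lines per side, and a trait of a clone and a trait of the genotype cannot be told apart with so few lines. P-values measure only the spread between cultures. The other 9 of the 33 samples of the series, from other assays, were not analysed here.

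Interleukin 10 is a cytokine that dampens inflammation and is made by many lymphoid and myeloid cells, including a subset of B cells. It signals through the receptor chains Il10ra and Il10rb, the kinases Jak1 and Tyk2 and the transcription factor Stat3. Il9r and Il7r encode the specific chains of the receptors for interleukin 9 and interleukin 7. Both pair with the common gamma chain Il2rg and signal through Jak1, Jak3 and Stat5. Il7r is required for the development of mouse B cell precursors and is usually switched off in mature B cells, whereas Il9r is found on some activated and memory B cells.

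Libraries held 28987854 to 34065813 estimated counts, of which the numbered regions took 3.78% to 5.48%. Log CPM profiles of cultures of one group correlated with means of 0.87 to 0.93 over the gene values. The markers of mature B cells summed to 23.4 to 77.3 CPM over 8 of 14 listed genes, with 56.7 to 77.3 CPM in activated knockout cultures against 37.5 to 59.6 CPM in activated wild-type cultures. T cell markers summed to 0.789 to 2.27 CPM (4 of 11 genes) and myeloid markers to 0.334 to 1.23 CPM (3 of 9 genes), and markers of B cell precursors lay between 3.6 and 7.0 CPM (4 of 9 genes). These sums hide differences between single markers. Among B cell markers of activated knockout against wild-type lines, Ebf1 was at 36.2 against 21.3 CPM, Blk at 4.33 against 1.6 CPM and Bank1 at 3.68 against 2.3 CPM. Pax5 (11.9 against 12.2 CPM) and Blnk (8.86 against 8.99 CPM) were close. The calls of Ebf1 and Bank1 did not hold in 5 and 7 of 12 fits with 1 library left out, or with any single line. Tcf7 went from a mean of 0.079 to 0.901 CPM on activation of the wild-type lines. In activated knockout against wild-type lines, Lck was at 0.566 against 0.221 CPM, while Cd28 was at 0.588 against 0.881 CPM and Tcf7 at 0.49 against 0.901 CPM. The Cd28 difference was not called (log2 change -0.57 ± 0.26, adjusted p = 0.228, edgeR). The Tcf7 call was lost in 7 of 12 fits with 1 library left out and with either knockout line alone. The Lck call was lost with KO1 alone (1.12). No marker with a region was at 0 in every library, and the part of these markers in the results was not tested. The region sum of Zmynd8 does not check the knockout. It was 2.83 to 4.27 CPM in activated knockout cultures and 2.02 to 3.22 CPM in activated wild-type cultures (log2 change 0.52 ± 0.16, adjusted p = 0.0417, edgeR; not called in 8 of 12 fits with 1 library left out, with any single line, under scaling from gene values (0.44) or on summed counts (0.51)), and which part of the gene was changed is not given.

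The regions that carry the values cover only a part of each gene. Il10 lies on chromosome 1 at 131019845 to 131024970 (GRCm38) and holds 1 region of 1065 bases, chr1:131022329-131023393, which is 20.8% of the span. Il9r lies on chromosome 11 at 32187544 to 32205283 and holds 2 regions, chr11:32195864-32197072 of 1209 bases and chr11:32202082-32202901 of 820 bases, together 11.4% of the span. Il7r lies on chromosome 15 at 9506159 to 9529941 and holds 2 regions, chr15:9523053-9523900 of 848 bases and chr15:9526918-9528803 of 1886 bases, together 11.5% of the span. Exon and intron positions were not used here, and whether a region's reads come from spliced or unspliced RNA is not known. Reads on annotated transcripts are held in other rows of the tables, which are not in these sums.

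Promoter sequences of Il9r and Il7r, from 250 bases before to 50 bases after the start site in RefSeq (GRCm38.p6), are shown to place the regions and to display short motifs of factors downstream of, or known to act on, these receptors. The Il9r promoter is chr11:32200230-32200529 and the Il7r promoter is chr15:9529827-9530126, both on the minus strand and read 5′ to 3′. Capitals mark matches to a STAT motif (TTCNNNGAA), an ETS motif (ACTTCC) or a GATA motif (AGATAA) on either strand.
Il9r promoter: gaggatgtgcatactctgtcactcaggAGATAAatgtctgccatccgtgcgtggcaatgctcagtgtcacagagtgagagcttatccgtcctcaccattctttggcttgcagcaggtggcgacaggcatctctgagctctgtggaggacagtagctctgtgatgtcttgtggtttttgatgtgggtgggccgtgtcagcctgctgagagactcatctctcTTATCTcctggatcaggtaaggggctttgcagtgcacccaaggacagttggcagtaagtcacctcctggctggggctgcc
Il7r promoter: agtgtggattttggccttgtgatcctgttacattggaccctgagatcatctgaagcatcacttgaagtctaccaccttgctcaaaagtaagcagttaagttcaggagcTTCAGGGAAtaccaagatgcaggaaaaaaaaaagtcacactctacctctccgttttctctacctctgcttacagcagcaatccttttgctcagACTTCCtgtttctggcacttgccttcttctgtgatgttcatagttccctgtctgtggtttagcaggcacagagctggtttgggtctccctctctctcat
The Il9r window, with a GC content of 54.3%, held 2 GATA matches, whose first bases lie at -223 and -30 from the start site, and no STAT or ETS match. The Il7r window, with a GC content of 45.7%, held a STAT match at -142 and an ETS match at -49, and no GATA match. Of 32851 promoters of this length, 8.3% hold the STAT motif, 23.8% the ETS motif and 11.2% the GATA motif, so such letters are found in many promoters. Also searched were the NF-kB motif (in 50.8% of promoters) and an AP-1 motif (TGANTCA, 7.8%), with no match in either window. A SMAD motif (CAGACA, 21.0%) matched 1 time in each, and an E-box (CANNTG, 72.3%) matched 2 times in Il9r and 3 times in Il7r; these are not in capitals. A match is a description and not a binding site. The 1209-base region of Il9r begins 3207 bases downstream of this start site, whereas the 820-base region lies 1803 bases upstream of it and inside the longer annotated span. The 1886-base region of Il7r begins 1073 bases downstream of its start site.

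**Figure D1:**
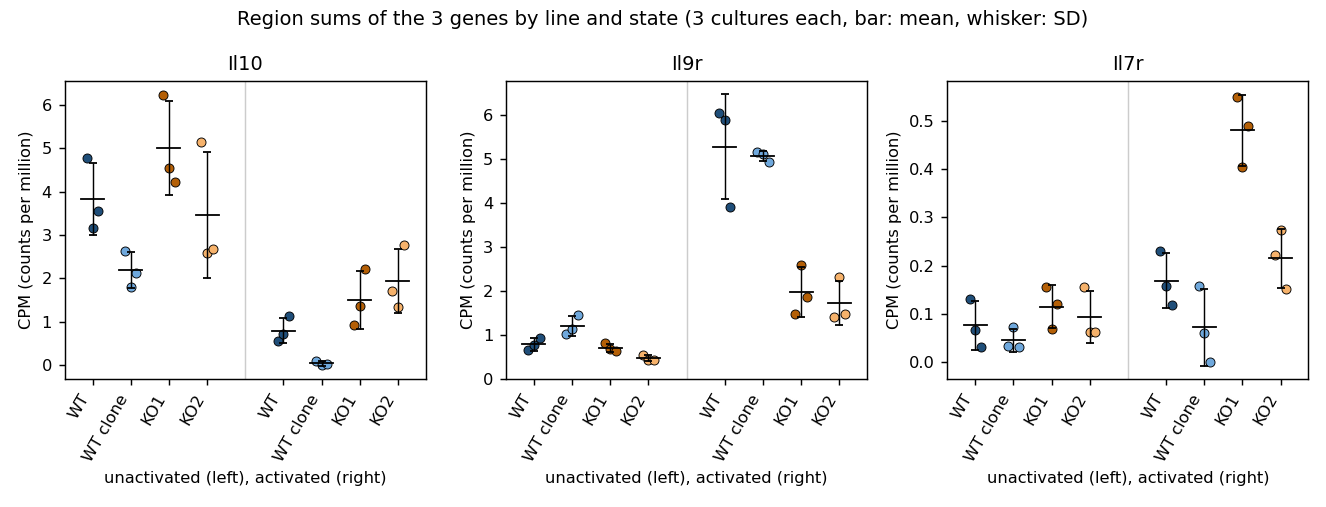
Region sums of Il10, Il9r and Il7r in CPM (vertical axes, separate scales) in 3 cultures of each line, unactivated on the left and activated on the right of each panel. Points are cultures, bars are means and whiskers are SD. Il10 is lowest in the activated WT clone, Il9r is highest in the activated WT and WT clone cultures, and Il7r is highest in activated KO1.

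Il10 was lower after activation in all 4 lines by mean, with the smallest ratio in KO2 and the largest in the WT clone. In unactivated cultures it stood at 4.77, 3.17 and 3.56 CPM in WT and at 2.63, 1.81 and 2.13 CPM in the WT clone. Unactivated KO1 cultures held 6.24, 4.54 and 4.23 CPM, and unactivated KO2 cultures 5.15, 2.58 and 2.69 CPM. The lines overlapped in this state, except that WT and KO1 each lay wholly above the WT clone.

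After activation Il10 was at 0.549, 0.722 and 1.13 CPM in WT. In the WT clone it was nearly absent, with 3, 0 and 1 counts in the 3 libraries, or a mean of 0.0412 CPM. The library with 0 counts allows up to 0.0912 CPM, the value of 3 counts, and this limit covers counting error only. Activated KO1 cultures held 0.925, 1.36 and 2.23 CPM and activated KO2 cultures 1.71, 1.34 and 2.78 CPM. KO2 lay above WT in every culture, KO1 overlapped WT, and both knockout lines lay above the WT clone.

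The ratio between the states was unequal across the lines. The WT mean went from 3.83 ± 0.832 to 0.799 ± 0.297 CPM (SD, n = 3), which was 4.80-fold lower with a 95% exact counting interval of 3.75 to 6.19. The WT clone went from 2.19 ± 0.415 to 0.0412 ± 0.0484 CPM, a ratio of 54.5 that rests on 4 counts and has an interval of 21.0 to 202. KO1 went from 5.00 ± 1.08 to 1.51 ± 0.665 CPM, 3.35-fold lower (2.78 to 4.05). KO2 went from 3.47 ± 1.45 to 1.94 ± 0.747 CPM, 1.79-fold lower (1.49 to 2.15), and only in KO2 did the unactivated and activated cultures overlap. These intervals, like all counting intervals given here, do not contain the spread between cultures.

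By genotype, Il10 in activated cultures was 4.08-fold higher in the knockout lines (3.20 to 5.24; 1.72 ± 0.676 against 0.420 ± 0.457 CPM, n = 6 each), with overlapping cultures. The ratio depended on the wild-type line used. Against WT it was 1.87 (1.42 to 2.49) for KO1 and 2.44 (1.87 to 3.21) for KO2, whereas against the WT clone it was 37.1 (14.2 to 138) and 48.2 (18.5 to 179). The WT line itself was 19.8-fold above the WT clone (7.43 to 74.3), so the wild-type lines differed from each other by more than either knockout line differed from WT. The log2 change of the model, which weights the lines equally on a log scale, was 3.18 ± 0.36 (SE), and it was 1.09 against WT alone and 5.27 against the WT clone alone. Without the WT clone culture that had 3 counts it was 3.79. On the summed counts of each line it was 2.03.

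Before activation the genotypes were close. Il10 was 1.40-fold higher in the knockout lines (1.25 to 1.56; 4.24 ± 1.42 against 3.01 ± 1.08 CPM), with overlapping cultures, and KO2 was not above WT (ratio 0.909, 0.780 to 1.06). The difference between the activation responses of the genotypes was 2.66 ± 0.45 on the log2 scale. It was 4.34 against the WT clone alone, 0.97 against WT alone, 1.52 from the summed counts of each line, and 3.24 without the WT clone culture of 3 counts. The sign was the same in each of these settings.

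Il9r moved the other way on activation and differed more evenly between the genotypes. Unactivated cultures held 0.657, 0.767 and 0.945 CPM in WT and 1.02, 1.14 and 1.46 CPM in the WT clone. They held 0.811, 0.683 and 0.634 CPM in KO1 and 0.558, 0.436 and 0.444 CPM in KO2. All KO2 cultures lay below all wild-type cultures, whereas KO1 overlapped WT.

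Activated cultures separated by genotype. WT held 6.04, 5.90 and 3.92 CPM and the WT clone 5.16, 5.11 and 4.94 CPM. KO1 held 1.47, 2.60 and 1.86 CPM and KO2 held 1.40, 2.31 and 1.48 CPM. No activated knockout culture reached the lowest activated wild-type culture, which was at 3.92 CPM.

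The Il9r mean was higher after activation in each line. The ratio of activated to unactivated was 6.66 in WT (5.21 to 8.63) and 4.18 in the WT clone (3.39 to 5.19). For the knockout clones it was 2.77 in KO1 (2.09 to 3.72) and 3.61 in KO2 (2.59 to 5.12). Activated cultures lay above unactivated cultures in every line. By genotype the ratio was 5.18 in the wild-type lines (4.42 to 6.10) and 3.12 in the knockout lines (2.52 to 3.89), and the difference of the responses was -0.74 ± 0.26 on the log2 scale. That difference was -1.08 against WT alone and -0.41 against the WT clone alone.

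In activated cultures Il9r was 2.79-fold lower in the knockout lines (2.48 to 3.16; 1.85 ± 0.502 against 5.18 ± 0.764 CPM, n = 6 each). The 4 pairings of a knockout with a wild-type line gave 2.57-fold to 3.05-fold lower values, and WT and the WT clone did not differ beyond their counting interval (ratio 1.04, 0.920 to 1.18). The modelled log2 change was -1.48 ± 0.16, with -1.62 to -1.40 on leaving out any 1 library. In unactivated cultures Il9r was 1.68-fold lower in the knockout lines (1.32 to 2.15; 0.594 ± 0.145 against 0.999 ± 0.286 CPM), with overlap. The modelled log2 change there, -0.74 ± 0.20, was -0.46 with KO1 alone, -1.02 with KO2 alone, -0.44 against WT alone and -1.05 against the WT clone alone.

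**Figure D2:**
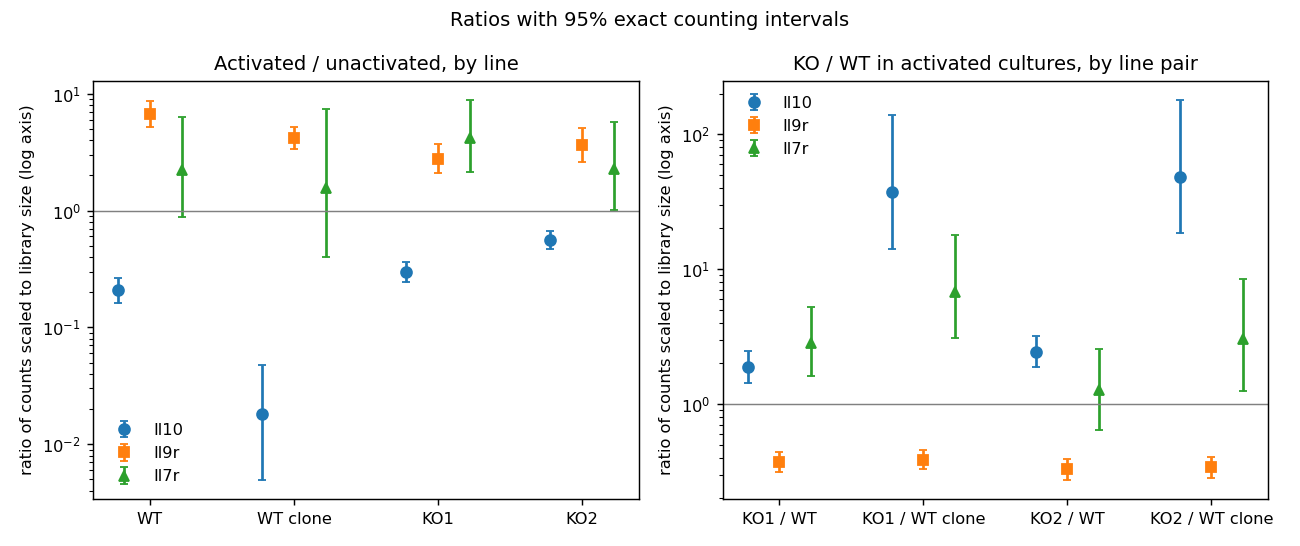
Ratios of counts scaled to library size with 95% exact counting intervals, on log axes, for Il10 (circles), Il9r (squares) and Il7r (triangles). On the left, activated over unactivated in each line: Il10 is below 1 and Il9r above 1 in all 4 lines. On the right, knockout over wild type in activated cultures for each pair of lines: Il9r is between 0.328 and 0.388 in every pair, while Il10 ranges from 1.87 to 48.2 with the wild-type line used.

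Nearly all of the Il9r signal came from 1 region. The 1209-base region held 1615 counts over the 24 libraries and the 820-base region 75. In the 1209-base region activated knockout cultures were 2.89-fold lower than wild-type cultures (2.55 to 3.27; 1.76 ± 0.468 against 5.07 ± 0.773 CPM), without overlap. In the 820-base region activated knockout over wild type was 0.914 (0.465 to 1.79), and activation gave 1.59 (0.748 to 3.55) in the wild-type lines. Both intervals include 1. Neither reaches the matching ratio of the 1209-base region, 0.346 (0.306 to 0.392) for genotype and 5.43 (4.61 to 6.43) for activation. The 2 regions thus differed beyond counting error, and the sum of the gene describes the 1209-base region. The 820-base region had 0 counts in the 3 unactivated WT clone libraries, which allows up to 0.0337 CPM over the group, and 12 counts in the 3 unactivated WT libraries.

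**Figure D3:**
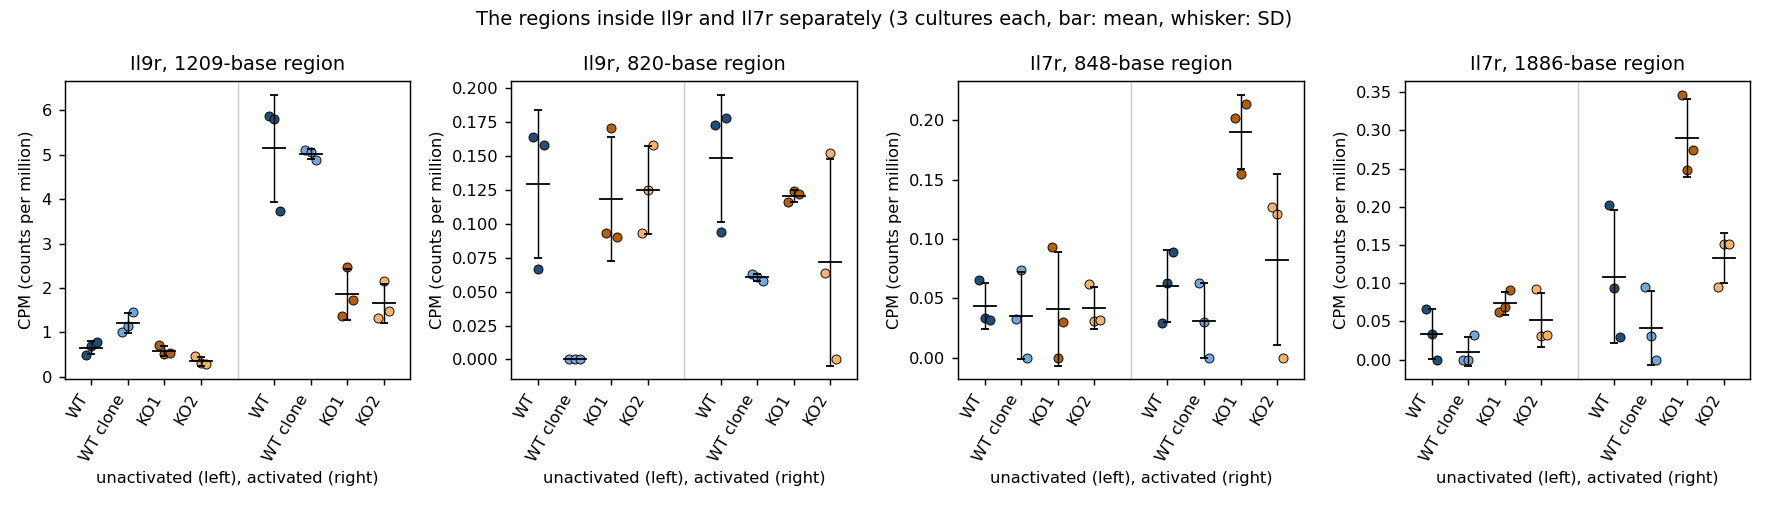
The regions inside Il9r and Il7r plotted separately in CPM (separate vertical scales), with 3 cultures per line and state, means and SD. The 1209-base region of Il9r carries the pattern of the gene's sum, and the 820-base region stays low in all groups, whereas both regions of Il7r are highest in activated KO1.

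Il7r was close to the limit of detection. Its region sums were 0 to 19 counts per library, and it passed the low-count filter only through activated KO1. Unactivated libraries held 4, 2 and 1 counts in WT, 1, 2 and 1 in the WT clone, 5, 2 and 4 in KO1 and 5, 2 and 2 in KO2. These correspond to means of 0.0766, 0.0461, 0.115 and 0.0936 CPM, and the 4 lines overlapped.

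Activated libraries held 8, 5 and 4 counts in WT, 5, 2 and 0 in the WT clone, 19, 13 and 16 in KO1 and 7, 9 and 5 in KO2. The WT clone library with 0 counts allows up to 0.0871 CPM. In CPM the means were 0.480 ± 0.0738 in KO1, 0.215 ± 0.0615 in KO2, 0.169 ± 0.0572 in WT and 0.0728 ± 0.0794 in the WT clone (SD, n = 3). KO1 lay above every other activated culture, and KO2 overlapped both wild-type lines.

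The knockout lines together were 2.91-fold above the wild-type lines in the activated state (1.80 to 4.84), with overlapping cultures. KO1 was 2.84-fold above WT (1.60 to 5.27) and 2.24-fold above KO2 (1.32 to 3.94). KO2 against WT gave 1.27 with an interval of 0.637 to 2.56, which holds both no change and a change of 2.56-fold. Activation changed the KO1 mean 4.14-fold (2.12 to 8.83), and the interval for the WT line included 1 (2.23, 0.880 to 6.37). The modelled log2 change between genotypes in the activated state, 1.52 ± 0.42, was 2.09 with KO1 alone, 0.94 with KO2 alone, 0.91 against WT alone, 2.12 against the WT clone alone and 2.08 without WT clone culture 1. By region the activated ratio was 3.03 (1.38 to 7.33) for the 848-base region and 2.83 (1.54 to 5.49) for the 1886-base region. Since Il7r passed the filter only through activated KO1, these values describe that group's high counts and are no support for a difference between the genotypes.

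The 3 genes therefore had 3 different orders of groups. For Il10 the 8 groups ran from unactivated KO1 down to the activated WT clone, and neighbours in that order overlapped at each step except the last, from activated WT to the activated WT clone. For Il9r the activated wild-type groups led, followed after a gap by activated KO1 and KO2. For Il7r only activated KO1 stood apart from its neighbour. Across the 24 libraries log CPM of Il10 and Il9r had a Pearson correlation of -0.82, Il10 and Il7r of 0.09, and Il9r and Il7r of 0.18. These are descriptions over libraries that share lines and states. Per kilobase of region, the unactivated wild-type lines held 2.83 CPM for Il10, 0.492 for Il9r and 0.0224 for Il7r, and the activated knockout lines 1.62, 0.914 and 0.127. In bulk RNA fewer cells with a transcript and less of it per cell cannot be told apart.

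Regions outside all genes lie within 30 kb of Il10 and Il7r, and their counts are not part of the gene values. They come from the same libraries and the window was set after the data were seen, so they too are described without a test. Around Il10, 7 such regions of 5917 bases in all were, like Il10, lower after activation in the wild-type lines, going from 0.848 ± 0.218 to 0.243 ± 0.0986 CPM, a ratio of 0.287 (0.201 to 0.394) without overlap. In the knockout lines they went from 1.03 ± 0.371 to 0.749 ± 0.269 CPM, a ratio of 0.725 (0.575 to 0.892) with overlap. Activated knockout cultures were 3.08-fold above activated wild-type cultures (2.22 to 4.38), without overlap (0.367 to 1.05 against 0.0871 to 0.345 CPM). These values are sums, and the 7 regions were not alike. The nearest, 717 bases from Il10, held 5, 5, 3 and 13 counts in activated WT, WT clone, KO1 and KO2. The region 12921 bases away on the same side held 3, 1, 3 and 3.

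In these flanking regions the wild-type lines were close to each other. Activated WT held 0.262 ± 0.0861 CPM and the activated WT clone 0.225 ± 0.126 CPM, although Il10 itself was 19.8-fold apart between them. KO2 stood at 0.965 ± 0.0740 CPM and KO1 at 0.534 ± 0.192 CPM after activation, in the same order as Il10 itself. Around Il7r, 3 regions of 3894 bases were 2.10-fold higher in activated knockout than in activated wild-type cultures (1.57 to 2.81; 0.757 ± 0.235 against 0.361 ± 0.0946 CPM), with overlap. There KO2 was higher than KO1 (0.888 ± 0.223 against 0.627 ± 0.194 CPM), the reverse of their order for Il7r. Most of these counts came from the region 24773 bases from Il7r, with 265 over the 24 libraries against 66 and 47 in the others. In activated KO1 and KO2 it held 42 and 66 counts, whereas the nearest region held 13 and 11. Around Il9r no region outside genes lies within this distance.

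**Figure D4:**
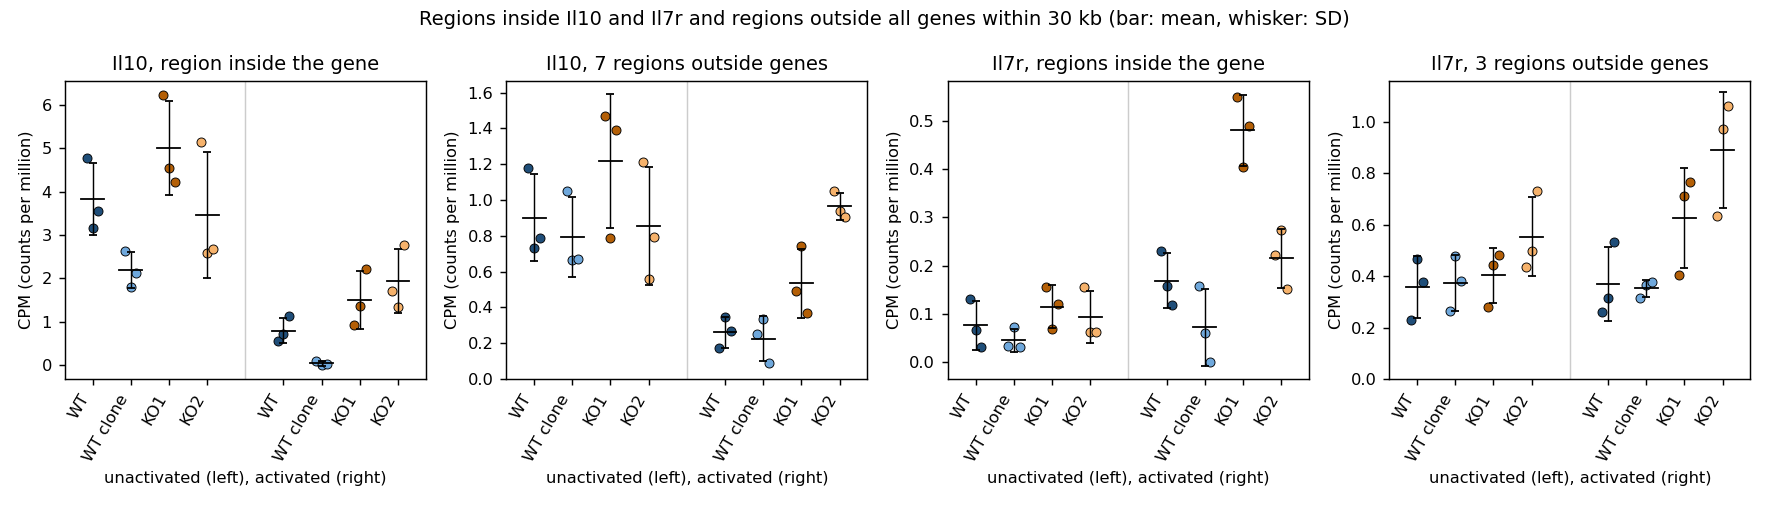
CPM in the regions inside Il10 and Il7r and in the regions outside all genes within 30 kb of them (the panel to the right of each gene's), per culture, with mean and SD on separate vertical scales. Around Il10 activated knockout cultures lie above activated wild-type cultures. The WT clone is near 0 inside Il10 but at 0.225 CPM outside it.

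Neighbouring genes within 250 kb were read from the edgeR quasi-likelihood fit over all 4485 tested gene values. Pigr, the polymeric immunoglobulin receptor, lies 167596 bases from Il10 and was higher in the knockout lines in both states. Its log2 changes were 2.41 ± 0.32 unactivated (adjusted p = 1.15e-05; 1.29 ± 0.410 against 0.242 ± 0.180 CPM) and 1.59 ± 0.33 activated (adjusted p = 0.00208; 0.773 ± 0.362 against 0.233 ± 0.160 CPM). The activated call was lost with KO1 alone (0.95) and against WT alone (1.33). On activation Pigr changed by -0.01 ± 0.42 in the wild-type lines (adjusted p = 0.985) and by -0.84 ± 0.27 in the knockout lines (adjusted p = 0.0213). The latter was not called in 3 of 12 fits with 1 library left out, in KO1 alone (-1.16), in KO2 alone (-0.52) or on summed counts (-0.75). Mapkapk2, Fcamr and Rassf5, the other tested genes in the window, passed in none of the KO against WT and activation comparisons.

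Near Il7r, Capsl was higher in activated knockout cultures by 1.59 ± 0.37 (adjusted p = 0.00476; 0.558 ± 0.181 against 0.195 ± 0.105 CPM), a call lost with KO1 alone (1.36) and against WT alone (1.03). The predicted gene Gm5219 was lower there by -1.71 ± 0.39 (adjusted p = 0.00385; 1.05 ± 0.899 against 3.42 ± 2.22 CPM), a call lost with KO1 alone (-1.44) and against the WT clone alone (-1.45). Spef2 did not pass. On activation Gm5219 rose by 3.48 ± 0.46 in the wild-type and 2.13 ± 0.51 in the knockout lines (adjusted p = 1.97e-06 and 0.00237), and Capsl by 1.31 ± 0.35 in the knockout lines (adjusted p = 0.00639). The knockout-line calls did not hold in KO2 alone for Gm5219 (1.58) or in KO1 alone for Capsl (1.20). Near Il9r the only tested neighbour was Nsg2, with KO against WT log2 changes of -0.24 ± 0.18 and -0.08 ± 0.17 that did not pass. On activation Nsg2 was called higher in the knockout lines (0.58 ± 0.18, adjusted p = 0.0163), but not with DESeq2, under scaling from gene values (0.28), in KO1 alone (0.24) or on summed counts (0.54).

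Genes whose log CPM followed each member across the 24 libraries were ranked among 1332 with a mean of at least 1 CPM. Blk, a Src-family kinase of B cells, was most like Il10 (r = 0.92), followed by Lrmp (0.89), Ctsc (0.88), Plek (0.86) and Wsb2 (0.86). Blk stood at 4.16 and 1.60 CPM in unactivated and activated wild-type lines and at 5.67 and 4.33 CPM in the knockout lines. Blk was higher in activated knockout lines by 1.49 ± 0.17 (adjusted p = 7.83e-07), and its activation responses differed between the genotypes by 1.04 ± 0.23 (adjusted p = 0.0304), a call that did not hold against WT alone (0.34), with KO1 alone (0.60) or on the summed counts of each line (0.96). Most like Il9r were Bcl2a1b (0.95), Notch2 (0.94), Pakap (0.93), Sik1 (0.93) and Birc2 (0.93). Notch2, the receptor through which marginal zone B cells form, went from 3.21 to 16.5 CPM on activation in the wild-type lines and from 1.93 to 7.18 CPM in the knockout lines. For Il7r, whose counts are low, the closest were Cask (0.83), Snx29 (0.78), Itsn1 (0.76), Ubxn11 (0.76) and Rab37 (0.76). These genes were picked for likeness, and the libraries share lines and states.

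The rest of the interleukin and JAK-STAT machinery was read from 6 lists of 177 genes, without the 3 members. Of these, 95 had a region and 61 were tested. In unactivated cultures 6 rose and 1 fell in the knockout lines, where 3.46% of all tested genes rose and 3.14% fell, and the list's median log2 change was -0.09 against -0.04 for all genes. Without KO2 culture 1 the 7 calls became 4. Against WT alone 1 rose and 2 fell, against the WT clone alone 2 rose and 2 fell, under scaling from gene values 6 rose and 3 fell, and without WT clone culture 3, 5 rose and 4 fell. In activated cultures 6 rose and 2 fell, against 6.35% and 2.34% of all genes (251 up and 151 down under scaling from the gene values alone, 285 and 105 before), with medians of 0.09 and 0.07. Those 8 calls became 5 without WT clone culture 1 or 2 and 4 without KO2 culture 3. They were 2 up and 2 down against WT alone, 6 up and 4 down under scaling from gene values, and 4 up and 4 down without KO1 culture 3. On activation 19 rose and 2 fell in the wild-type lines (all genes: 16.5% and 5.44%, medians 0.43 and 0.18), and 29 rose and 1 fell in the knockout lines (all genes: 24.1% and 4.19%, medians 0.60 and 0.28). With scaling factors from the gene values alone the median of all genes on activation moved to -0.04 and -0.03, all genes split into 497 up and 507 down in the wild-type lines (738 and 244 before) and 572 up and 494 down in the knockout lines (1080 and 188 before), and the list into 16 up and 2 down and 17 up and 4 down. In the difference of the responses 1 list gene was called, higher, where 0.424% of all genes were higher and 0.134% lower. None was lower (5 at an unadjusted p under 0.05, and 0 with DESeq2).

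Among the cytokines, Il15, a growth factor of lymphocytes, rose in activated knockout cultures by 1.36 ± 0.40 (adjusted p = 0.0320; 0.578 ± 0.156 against 0.222 ± 0.159 CPM). This call did not hold without WT culture 1 or 2, WT clone culture 1, KO1 culture 3 or KO2 culture 3, nor with either knockout or either wild-type line alone. Il16, a chemoattractant cytokine precursor, rose on activation by 1.18 ± 0.16 in the wild-type and by 1.18 ± 0.16 in the knockout lines, and was 8.92 ± 1.37 and 11.3 ± 1.93 CPM in activated cultures. The ligands Il7 and Il9, the common gamma chain Il2rg and Jak3 had no tested value.

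Of 4 tested genes of the gamma chain family, 1 was called between the genotypes (Il15, activated), 1 on activation of the wild-type lines and 3 on activation of the knockout lines. All these calls were rises, and 6.35%, 16.5% and 24.1% of all tested genes rose in these comparisons. With 4 genes, such counts are no result about the family. Il21r, the interleukin 21 receptor, rose by 0.96 ± 0.19 in the wild-type lines (adjusted p = 0.00035; 4.52 ± 1.2 to 8.76 ± 0.999 CPM) and by 1.83 ± 0.19 in the knockout lines (adjusted p = 4.04e-08; 3.23 ± 1.04 to 11.4 ± 1.53 CPM). Il4ra, the interleukin 4 receptor chain, rose in the knockout lines by 0.59 ± 0.19 (adjusted p = 0.0213), with 0.29 and no call under scaling from gene values and 0.06 over overlapping regions. Il2ra had a log2 change of 0.55 ± 0.21 there (adjusted p = 0.0495), which was not called in 8 of 12 fits with 1 library left out, with DESeq2 or under scaling from gene values (0.25). The region sums of the interleukin 10 receptor chains were low: Il10ra was at 0.0524 to 0.4 CPM by group mean and Il10rb at 0.151 to 0.262 CPM. Such sums do not give the expression of a gene, since reads on annotated transcripts are not in them. The B cell marker Cd79a was at 0.14 to 0.369 CPM by the same measure. Neither receptor chain differed between the genotypes past the threshold, with log2 changes of -0.88 ± 0.49 for Il10ra and -0.16 ± 0.47 for Il10rb in activated cultures. Il10ra rose on activation in the knockout lines (1.91 ± 0.68, adjusted p = 0.0354), a call that did not hold in 9 of the 12 fits with 1 library left out (1.44 to 2.37).

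Receptors outside that family moved in both directions. Csf2rb, the common beta chain of the interleukin 3 and interleukin 5 receptors, rose on activation by 1.71 ± 0.20 in the wild-type and 1.49 ± 0.22 in the knockout lines. In activated cultures it was lower in the knockout lines by -0.71 ± 0.19 (adjusted p = 0.0138; 1.75 ± 0.483 against 2.83 ± 0.387 CPM), the direction of Il9r. That call did not hold with KO1 alone (-0.45), against the WT clone alone (-0.66) or on the summed counts of each line (-0.69). Il5ra, the specific chain of the interleukin 5 receptor, was higher in the knockout lines by 0.64 ± 0.20 unactivated (adjusted p = 0.0485) and 0.65 ± 0.20 activated (adjusted p = 0.0361; 7.03 ± 1.55 against 4.48 ± 1.18 CPM). With 1 library left out, the first call was lost in 10 of 12 fits (0.55 to 0.83) and the second in 7 of 12 (0.52 to 0.79). Il6ra rose on activation in the knockout lines (0.69 ± 0.16, adjusted p = 0.00212; 0.39 and not called under scaling from gene values). Il31ra was called lower in activated knockout cultures (-3.76 ± 1.04, adjusted p = 0.0196), but single libraries carried it: the median library held 7.46 CPM, and WT clone activated culture 2 held 706 CPM. With 1 library left out its change ranged from -4.06 to -1.18 and the call was lost in 6 of 12 fits.

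In the signalling chain 8 of 23 JAK-STAT genes rose on activation in the wild-type and 11 in the knockout lines (16.5% and 24.1% of all tested genes rose), and none fell (0 at an unadjusted p under 0.05 and 0 with DESeq2, in both). Jak2, a kinase used by many cytokine receptors, rose by 2.73 ± 0.21 in the wild-type lines (0.455 ± 0.119 to 3.02 ± 0.576 CPM, adjusted p = 2.91e-10) and by 1.77 ± 0.20 in the knockout lines (adjusted p = 1.05e-07). Jak1, shared by all 3 receptors discussed here, rose by 0.64 ± 0.17 and 0.62 ± 0.16, and Stat5b, the factor below the gamma chain receptors, by 0.78 ± 0.19 and 0.67 ± 0.19. The knockout-line rises of Jak1 and Stat5b were not called under scaling from gene values (0.32 and 0.37), and their wild-type rises were not called in WT alone (0.45 and 0.67). Stat3, the factor below the interleukin 10 receptor, had a KO against WT log2 change of -1.24 ± 0.39 unactivated and -0.22 ± 0.33 activated, neither past the threshold. On activation Stat3 was called higher in the knockout lines (1.27 ± 0.38, adjusted p = 0.0147, edgeR) but not in the wild-type lines (0.24 ± 0.33). The knockout-line call did not hold in KO1 alone (1.19) or KO2 alone (1.34).

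Jak1, Jak2, Stat5a and Stat5b did not pass between the genotypes in either state, with log2 changes from -0.29 to 0.74. The suppressors Socs2, Socs4 and Socs5 passed in none of the comparisons. Bcl2, a survival gene that lies below cytokine receptors, was higher in the knockout lines by 0.65 ± 0.18 unactivated (adjusted p = 0.0241) and 0.68 ± 0.18 activated (adjusted p = 0.0122; 9.24 ± 1.66 against 5.79 ± 1.88 CPM). The unactivated call did not hold without WT culture 1, WT clone culture 2, KO1 culture 1 or KO2 culture 1 (0.60 to 0.71 over all 12), nor against WT alone (0.58). Neither call held with KO1 alone (0.50 and 0.62) or against the WT clone alone (0.73 and 0.55). Ptpn6, a phosphatase that restrains B cell receptor and cytokine signals, was higher in unactivated knockout lines by 0.62 ± 0.16 (adjusted p = 0.0133), which did not hold with KO2 alone (0.51), against the WT clone alone (0.47) or on the summed counts of each line (0.64).

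**Figure D5:**
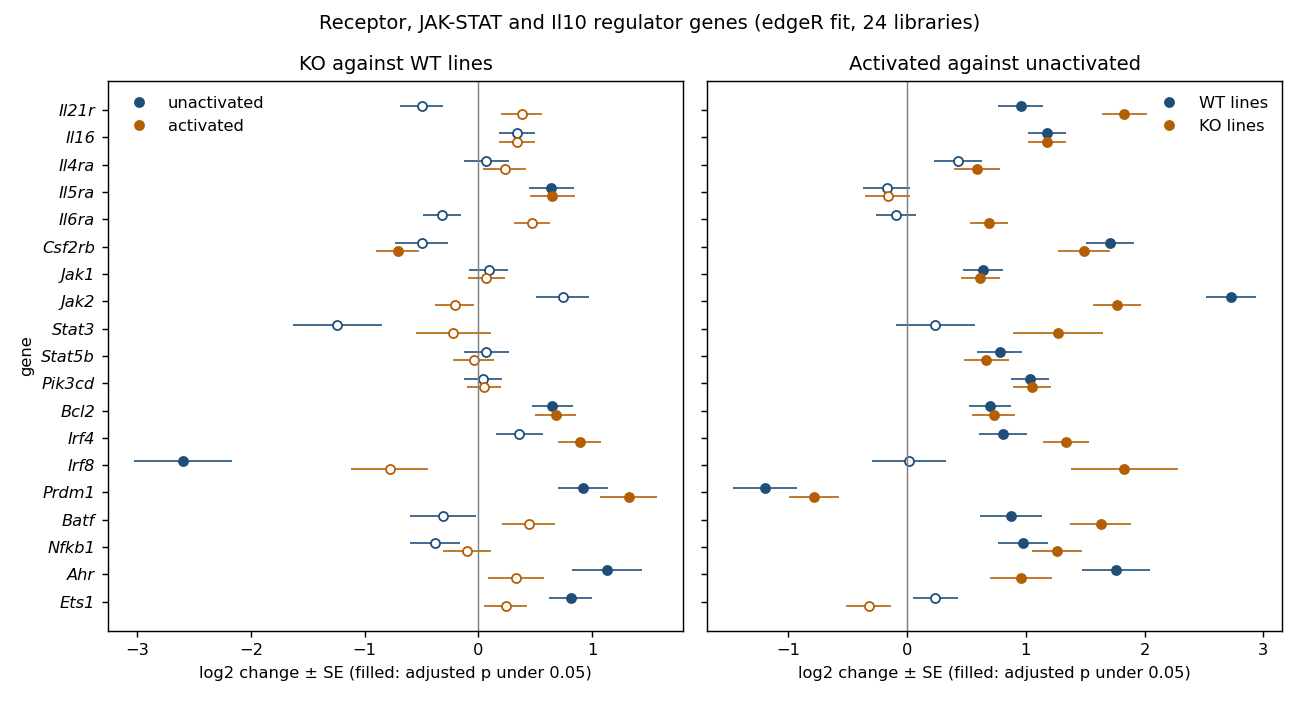
Log2 changes ± SE from the edgeR fit for listed receptor, signalling and regulator genes. The left panel gives knockout against wild-type lines (blue unactivated, orange activated) and the right panel activated against unactivated cultures (blue WT lines, orange KO lines), with filled points for an adjusted p under 0.05. Jak2 has the longest shift on activation of the WT lines in this set, and Irf8 the longest between the genotypes.

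Of 19 tested genes known to act on Il10 transcription or its RNA, 3 rose and 1 fell in unactivated knockout lines, where 3.46% and 3.14% of all tested genes did. In activated ones 3 rose and none fell (1 at an unadjusted p under 0.05, 0 with DESeq2), against 6.35% and 2.34% of all tested genes. Prdm1, the plasma cell regulator, was higher in both states, by 0.92 ± 0.22 (adjusted p = 0.00753) and 1.32 ± 0.25 (adjusted p = 0.000846; 0.559 ± 0.174 against 0.236 ± 0.116 CPM). Neither call held against WT alone (0.13 and 0.79) or on the summed counts of each line (0.73 and 1.24), and the first did not hold with KO2 alone (0.85). Irf4, which drives plasma cell and activation programmes, was higher in activated knockout lines by 0.89 ± 0.19 (adjusted p = 0.00208; 3.65 ± 0.553 against 1.98 ± 0.367 CPM), and this was not called against WT alone (0.72). Irf8, a regulator of germinal centre and myeloid genes, was lower in unactivated knockout lines by -2.60 ± 0.43 (adjusted p = 0.00019; 0.135 ± 0.0821 against 0.851 ± 0.470 CPM).

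Prdm1 fell on activation, by -1.19 ± 0.27 in the wild-type and -0.78 ± 0.21 in the knockout lines. Neither call held on the summed counts of each line (-1.30 and -0.79), and they did not hold in the WT clone alone (-0.93) and in KO2 alone (-0.57). Nfkb1, Batf, Ahr and Irf4 rose on activation in both genotypes, with log2 changes of 0.98, 0.88, 1.76 and 0.81 in the wild-type lines and 1.26, 1.63, 0.96 and 1.34 in the knockout lines. In single lines the calls did not hold for Batf in the WT clone (0.59), for Irf4 in WT (0.58) or for Ahr in KO1 (1.00) or KO2 (0.93), and Batf was also not called without WT unactivated culture 2 or WT clone unactivated culture 3. Ahr, the aryl hydrocarbon receptor, was higher in unactivated knockout lines (1.13 ± 0.31, adjusted p = 0.0222, edgeR). This call did not hold without WT culture 2, KO1 culture 1 or KO2 culture 1 or 3 (0.93 to 1.44 over all 12). It was also lost with KO1 alone (0.95), against WT alone (0.94) and against the WT clone alone (1.32). Ets1 was higher there by 0.81 ± 0.19 (adjusted p = 0.00758), lost against WT alone (0.60). Zfp36l1, which destabilises messenger RNAs, was called in 4 of the 5 comparisons, but its values ranged from 0 to 8.66 CPM with a median of 1.23, and the next highest library was at 2.76 CPM. Its rise in activated knockout cultures (2.54 ± 0.76, adjusted p = 0.0354) did not hold in 7 of the 12 fits with 1 library left out (2.26 to 4.83). That call was also lost with DESeq2 (2.59), with KO1 alone (2.56) or KO2 alone (2.52), against the WT clone alone (0.76) and on summed counts (1.64).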

How the data were processed

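Ribosome-depleted total RNA was sequenced as stranded single-end libraries on a NextSeq, per the labels' protocols. Per the submitters' processing notes, kallisto 0.43.0 and DESeq2 were used with GRCm38.p5. No label states the annotation release, the strand setting or how the numbered regions were made. Deposited by the authors were estimated counts (expected counts) and TPM values per library for 171152 targets. The deposited TPM values were not used. Estimated counts were rounded, and 26589 of 49745 regions lay wholly inside exactly 1 RefSeq gene of GRCm38.p6, with 12 whole-locus entries left out. Kallisto divides reads among similar targets, so reads of a region may be assigned to a transcript it overlaps.

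Gene values passing edgeR's filterByExpr (4485) entered 1 quasi-likelihood fit of 24 libraries with 8 group means (edgeR 4.0.16, R 4.3.3), scaled by trimmed means of M values over 61074 kept targets. Calls needed a Benjamini-Hochberg adjusted p under 0.05. On simulated data for KO against WT in the activated state, over 4275 genes, edgeR called 88% of the 2-fold and 100% of the 4-fold changes made, and 0.1% of unchanged genes. The changes were made only in genes with a mean above the median, and the simulated lines of a genotype did not differ from each other. These shares therefore do not apply to genes with low counts or to differences between clones. Ratios carry 95% exact conditional intervals. The members and lists were chosen with earlier results of these data known. Named genes are the members, Zmynd8, the receptor chains and JAK, STAT and SOCS genes of these pathways, up to 3 called genes of each list per comparison with the smallest p, and the 5 most correlated genes of each member. Not every gene so named is described in the text. Among those left out are the receptor genes Csf2rb2 and Ifngr1, called on activation of the wild-type lines (Ifngr1 not in 4 of 12 fits with 1 library left out). Neighbouring genes and flanking regions were added after the data were seen. Alternatives were relative log expression scaling, scaling from gene values, DESeq2 1.42.0, no low-count filter, a replicate block, fewer libraries, single lines, counts summed per line, overlapping regions and each library left out. A listed gene is not reported here.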

Additional observations from a re-analysis of the deposited data

Results flagged for a closer look

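Among the named genes outside the 3 members, 2 had activation responses that differed between the genotypes by a test of the difference itself (edgeR's quasi-likelihood test, adjusted over 4485 gene values). The naming rule takes genes called in this comparison, and both were named by it, so their number is not a result. Blk was also picked for its likeness to Il10 in the same libraries. Of all tested genes, 0.424% were called higher and 0.134% lower in this comparison. Zfp36l1 differed by 4.44 ± 1.01 on the log2 scale, knockout minus wild type (adjusted p = 0.0331), and was not called in 13 of the 24 fits with 1 library left out (3.61 to 6.97) or with DESeq2 (4.52). Nor was Zfp36l1 called with KO1 alone (4.67), KO2 alone (4.21), against WT alone (5.44), against the WT clone alone (3.45) or on summed counts (3.65). Blk differed by 1.04 ± 0.23 (adjusted p = 0.0304), and was not called in 13 of the 24 fits with 1 library left out (0.94 to 1.14), while it was called with DESeq2. The Blk call was also lost with KO1 alone (0.60), against WT alone (0.34) and on summed counts (0.96).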

How the results depend on the processing

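Counts of called genes changed mostly with the lines used. For KO against WT in unactivated cultures the count over all genes, 296, was 157 with KO1 alone, 176 with KO2 alone, 149 against WT alone and 212 to 314 on leaving out 1 library. The list's 7 became 11 with no low-count filter, 4 with KO1 alone, 3 against WT alone, 4 against the WT clone alone, and 4 to 9 without 1 library. In activated cultures 390 became 179 with KO1 alone, 205 against WT alone, 251 on summed counts per line, and 288 to 363 without 1 library. The list's 8 became 2 with KO1 alone, 5 with KO2 alone, 4 against WT alone, 4 against the WT clone alone, and 4 to 9 without 1 library. Activation in the wild-type lines gave 982 calls, with 519 in WT alone, 565 in the WT clone alone and 855 to 1187 without 1 library. The list's 21 became 13 in WT alone and 19 to 26 without 1 library. In the knockout lines 1268 became 725 in KO1 alone, 675 in KO2 alone and 1052 to 1203 without 1 library. The list's 30 became 15 in KO1 alone, 16 in KO2 alone and 23 to 28 without 1 library. The difference of the responses gave 25 calls, with 55 under DESeq2, 81 with no filter, 45 with the replicate block, 59 with overlapping regions, 6 with KO1 alone, 0 against WT alone, 0 on summed counts per line and 14 (without KO2 activated culture 1) to 39 (without WT unactivated culture 1). Its list count of 1 became 3 with no filter, 2 with the replicate block, 3 with overlapping regions, 0 with KO1 alone, 0 with KO2 alone, 0 against WT alone, 0 against the WT clone alone, 0 on summed counts per line and 0 to 1 without 1 library. Comparisons with single lines were read from the same fit of 24 libraries, with 1 line in place of 2 on a side. Summed counts gave 1 column per line and state, with the lines of a genotype as replicates. The cause of these changes was not tested. The labels do not say that a replicate number marks a shared batch. Over 84 same-numbered pairs of cultures, deviations from the group means correlated from -0.29 to 0.26 (median 0.07, against -0.03 for other numbers), and 28 pairs were over 0.1. The numbers were not taken as a pairing. Yet 18 of 24 libraries correlated best with their own number out of 3, a hint from the data of shared rounds, which was not tested. Il10 was highest in culture 1 of all 4 unactivated lines (4.77, 2.63, 6.24 and 5.15 CPM in WT, the WT clone, KO1 and KO2). After activation culture 3 was highest in WT, KO1 and KO2, and culture 1 in the WT clone. Il10 in activated KO1 was above WT at each number, although their cultures overlapped. The SDs and overlaps given here leave out any such sharing. The replicate block moved no other count by over 1.5 times, and of the named genes called in the report it ended the call of Il31ra in activated cultures (-2.81). The log2 changes of Il10, Il9r and Il7r kept their sign in every alternative, 28 of 379 values moved by more than the spread between cultures, and the Il7r values, with at most 19 counts per library, are limited by depth.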
